A study of Mus musculus with 6 samples.

Results

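Potassium channel genes were read in laser-captured motoneuron regions of the embryonic mouse cervical cord, on the left and on the right. All probe sets annotated to 1 gene whose symbol begins with Kcn were taken, with the noncoding Kcnq1ot1 left out (6 probe sets), which gave 83 genes, of 18193 named on the array, read by 161 of its 45101 probe sets. The tissue came from 3 littermate embryos at E11.5. All carried an HB9::GFP transgene, in which the promoter of the motoneuron factor HB9 (Mnx1) drives GFP, and none of the labels names a treatment. The left pool and the right pool of each embryo were cut from the same frozen sections by their GFP signal, so that 3 left and 3 right pools were hybridised to 6 Affymetrix whole-genome mouse arrays. The comparison asked whether cervical motoneurons differ between the sides. A captured region also holds whatever lies among the labelled cells, and with bulk RNA fewer cells of a type and less RNA per cell cannot be told apart.

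Potassium channels set the resting potential and shape the action potential by letting potassium leave the cell. Voltage-gated (Kv) channels are tetramers of pore subunits, some of which form no channel alone and only modify others. Channels gated by calcium or sodium follow firing, inward rectifiers (Kir) pass current near rest, 2-pore-domain channels carry leak current, and auxiliary subunits alter gating and transport of the pores. In motoneurons they govern firing threshold, spike width and the afterhyperpolarization, and many are added as the neurons mature.

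The captured regions carried the RNA of motoneurons in all 6 pools. Mnx1 read 3520 to 5219, Isl1, which encodes a transcription factor needed to make motoneurons, 3771 to 5991, and the neuronal tubulin Tubb3 12672 to 15972. The right pool of embryo 1 stood apart in markers of mesenchyme and muscle. There 9 mesenchyme genes, of which 7 reached a signal of 200 in some pool, summed to 16400, against 1151 to 2635 in the other 5 pools. In the same pool 6 muscle genes (5 reaching 200) summed to 3602 against 160 to 486. The mesenchyme sum was also higher on the right in embryo 2, at 1151 in the left and 2635 in the right pool. In embryo 3 the sides were nearly level, at 1930 and 1947. The list sums of 4 pericyte genes (1109 to 1926) and 5 endothelial genes (667 to 1653) were less far apart. The pericyte gene Anpep and the endothelial genes Cdh5, Tek and Tie1 stayed below 200 in all pools. The 4 erythroid genes measured summed to 20238 in the left and 36384 in the right pool of embryo 1. Their sums were 24715 and 22512 in embryo 2 and 37423 and 32232 in embryo 3. The sums of 4 microglia and macrophage genes ran from 1269 to 2000. Those of 3 measured genes of sensory ganglion and neural crest ran from 620 to 1002. The counts of side differences below are also given without embryo 1, which leaves the mesenchyme difference of embryo 2 in place.

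The first question was which potassium channel genes were read at all. The deposited signals are MAS5 values on a linear scale, and a signal of 200 is the limit below which the study's methods discard a transcript. Each gene is given by its brightest probe set. Of the 83 genes, 36 reached 200 in at least 1 pool, 15 of them in all 6 pools, and 47 in none. Probe sets differ in how well they bind, so the order of genes below is one of signals, not of RNA amounts, and a signal below 200 does not show that a gene is silent.

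**Figure D1:**
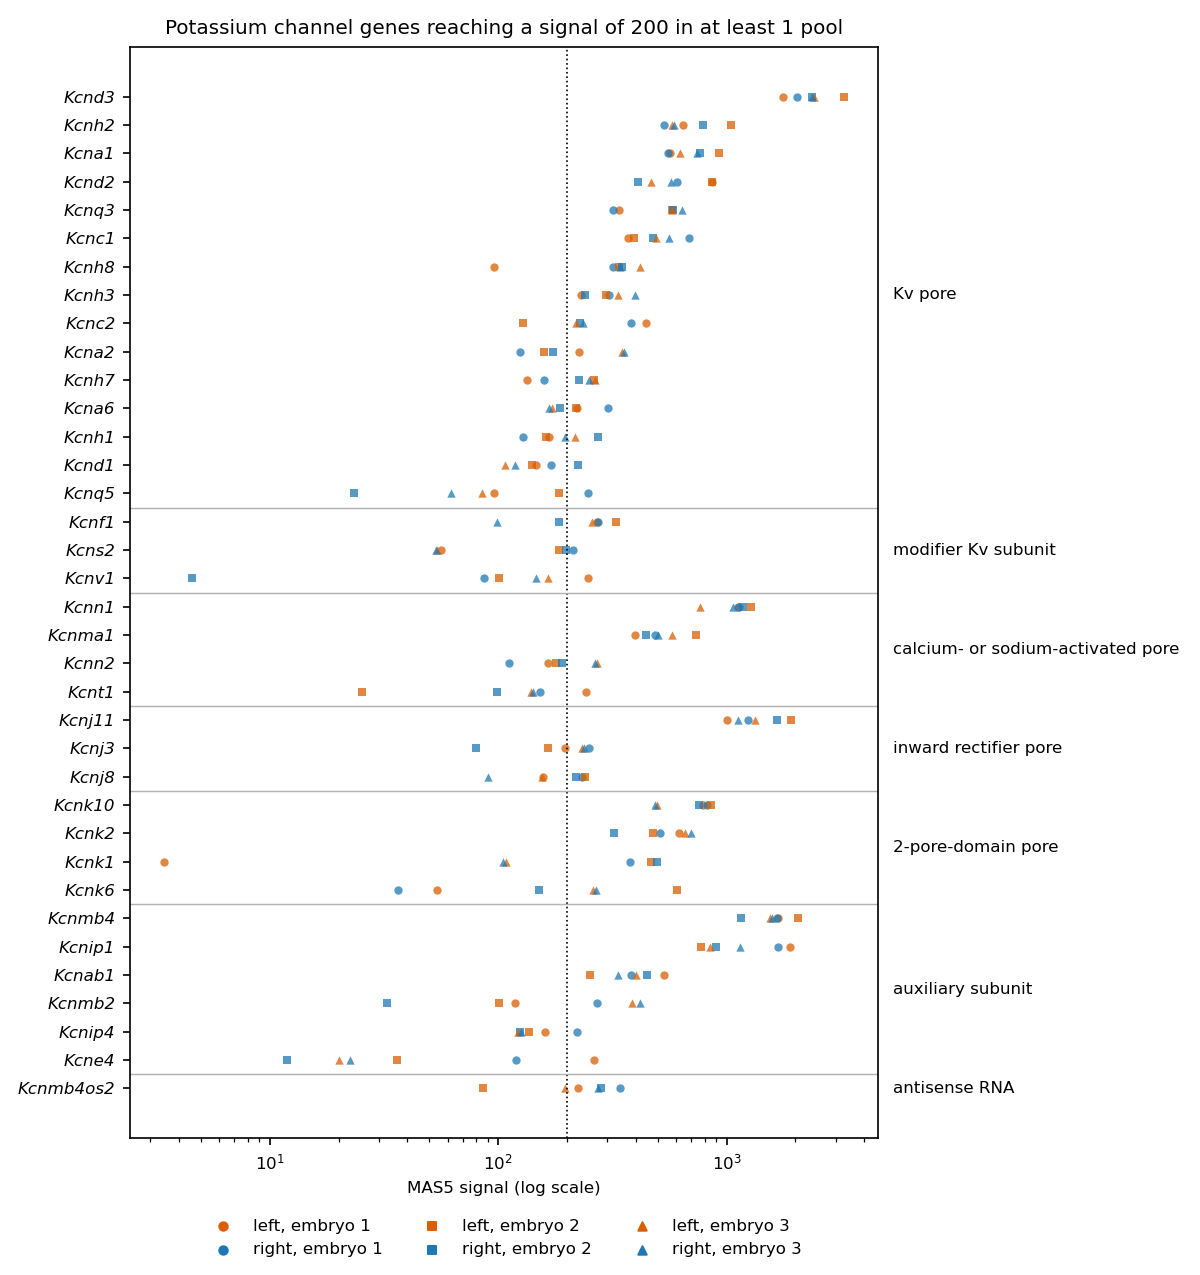
MAS5 signal (log scale) of the brightest probe set of each of the 36 Kcn genes that reached 200 in at least 1 pool, grouped by subunit class, with left pools in orange, right pools in blue, and circles, squares and triangles for embryos 1, 2 and 3. The dotted line marks 200. Kcnd3, Kcnmb4, Kcnj11, Kcnip1 and Kcnn1 had the highest mean signals, and left and right pools overlapped for all genes shown but Kcnmb4os2.

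Among 22 genes for Kv pores, 15 reached the limit, 7 of them in all pools. Kcnd3, which encodes Kv4.3 and carries fast inactivating A-type current, had the highest mean signal of any Kcn gene. It read 1770, 3250 and 2415 in the left pools of embryos 1, 2 and 3 and 2034, 2363 and 2371 in the right pools. The sides overlapped, and the left pool of embryo 2 was the highest. Kcnd2 (Kv4.2), the other A-type pore of central neurons, read 862, 866 and 465 in left pools and 608, 411 and 568 in right pools, and was lower on the right in embryos 1 and 2 only. Kcnd1, their relative, passed 200 in 1 pool by its brightest probe set (107 to 223).

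Of the proteins that join Kv4 pores, the calcium-binding Kcnip1 (KChIP1) read 1888, 773 and 848 in left pools and 1680, 899 and 1143 in right pools. Both pools of embryo 1 were above all others. The remaining KChIP genes were dim, with at most 222 for Kcnip4, 109 for Kcnip2 and 106 for Kcnip3 in any pool by the brightest probe set. Dpp6, a membrane partner of Kv4 whose name lies outside the Kcn series, read 1511 to 1876 in all pools, and its relative Dpp10 125 to 366.

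Other Kv pores with a steady signal were those of ERG, Shaker-type, M-current and Shaw-type channels. Kcnh2 (ERG), known for cardiac repolarisation and present in neurons, read 647, 1044 and 577 in left pools and 529, 791 and 586 in right pools. Kcna1 (Kv1.1), which limits repetitive firing, read 562, 924 and 623 in left pools and 554, 764 and 738 in right pools. Embryo 2 gave the highest pool of both genes. Kcnq3 (Kv7.3), a subunit of the M-channel that acts as a brake on firing, read 339, 577 and 577 in left pools and 318, 583 and 635 in right pools, lowest in the 2 pools of embryo 1. Kcnq5, another M-channel subunit, passed 200 in 1 pool (23.5 to 248).

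Kcnc1 (Kv3.1), a Shaw-type pore that lets mature neurons fire fast, read 371, 392 and 492 in left pools and 683, 477 and 560 in right pools. It was higher on the right in each embryo, although the pools of the sides overlapped. Its relative Kcnc2 (Kv3.2) read 128 to 444. Kcnh8 and Kcnh3, pores of the ELK group, ranged from 96.1 to 417 and from 230 to 396. The low value of Kcnh8 was the left pool of embryo 1 alone, whereas its other 5 pools were at 319 or above. Kcna2 (125 to 356), Kcna6 (166 to 303), Kcnh7 (134 to 265) and Kcnh1 (128 to 274) lay on either side of the limit, and Kcna3, Kcna4, Kcna5 and Kcna7 stayed below it in all pools, at 180 or less.

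The modifier subunits Kcnf1, Kcng1, Kcng2, Kcng4, Kcns1, Kcns2, Kcns3, Kcnv1 and Kcnv2 form no channel alone, and none of these 9 genes reached 200 in all pools. Kcnf1 (Kv5.1) was the brightest, with 270, 329 and 256 in left pools and 273, 184 and 98.9 in right pools. It was lower on the right in embryos 2 and 3 and alike on the sides in embryo 1.

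Channels that open with calcium were led by Kcnn1 (SK1), which takes part in the afterhyperpolarization. It read 1128, 1278 and 762 in left pools and 1125, 1175 and 1069 in right pools. The left pool of embryo 3 was the lowest. Kcnn2 (SK2), a main SK channel of adult motoneurons, read 111 to 272, and Kcnn3 (SK3) at most 29.0.

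The BK channel opens with calcium and voltage together, and its neuronal auxiliary subunit Kcnmb4 (beta 4) had the second highest mean signal of the Kcn genes. Kcnmb4 read 1671, 2043 and 1551 in left pools and 1668, 1154 and 1578 in right pools. The sides were nearly equal in embryos 1 and 3, and embryo 2 held both the highest and the lowest pool. The BK pore Kcnma1 read 397, 737 and 576 in left pools and 485, 441 and 500 in right pools. The other beta subunit genes read at most 416 (Kcnmb2) and 69.0 (Kcnmb1).

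Of 15 inward rectifier genes only Kcnj11 reached 200 in all pools, and 12 reached it in none. Kcnj11 encodes Kir6.2, the pore of the ATP-sensitive channel that ties excitability to metabolism. It read 1005, 1913 and 1334 in left pools and 1237, 1665 and 1121 in right pools, highest in the 2 pools of embryo 2. Its regulatory partner Abcc8 (SUR1) read 136 to 294, highest in the 2 pools of embryo 1. The vascular form of the channel pairs Kcnj8 (Kir6.1) with Abcc9 (SUR2), which read 90.1 to 240 and 121 to 451. Of the pericyte markers, Pdgfrb read 187 to 731 in the same pools, Rgs5 603 to 1199, Cspg4 137 to 344 and Anpep at most 12.7. Kcnj8, Abcc9 and Cspg4 were highest in the left pool of embryo 2. Pdgfrb was highest in the right pool of embryo 1 and Rgs5 in that of embryo 2. The part of vessel walls in the Kcnj8 and Abcc9 signals was not tested. Kcnj3 (Kir3.1), which opens with G proteins, read 80.2 to 250, the glial Kcnj10 (Kir4.1) at most 115, and Kcnj2 (Kir2.1) at most 4.76.

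Leak channels were represented by the stretch-sensitive TREK genes. Kcnk10 (TREK-2) read 791, 856 and 496 in left pools and 819, 756 and 484 in right pools, with both pools of embryo 3 below the other 4. Kcnk2 (TREK-1) read 621, 478 and 657 in left pools and 512, 322 and 697 in right pools. The sides overlapped for both genes. Kcnk3 (TASK-1), a leak channel of adult motoneurons, stayed between 19.1 and 192. Kcnk1 (TWIK-1) was read unevenly, with 3.45, 466 and 108 in left pools and 379, 494 and 105 in right pools. Its left pool of embryo 1 was close to 0, so that the ratio there has no exact size. Among the remaining auxiliary genes, Kcnab1, which encodes a cytoplasmic beta subunit of Kv1 channels, read 253 to 533, and 4 Kcne genes besides Kcne4 stayed at 59.5 or less.

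RefSeq sequences were available for the region around the start of 63 of the 83 genes (GRCm38.p6, 250 bases before to 50 after the start). They are shown here for the brightest pore gene, and for Kcnmb4 and the antisense RNA Kcnmb4os2, which begins within the Kcnmb4 gene on the other strand and had the smallest limma p for a side difference of all Kcn probe sets. Each CG dinucleotide, which reads the same on both strands, is in capitals, since runs of them mark CpG islands.
Kcnd3, chr3:105451640-105451939, + strand: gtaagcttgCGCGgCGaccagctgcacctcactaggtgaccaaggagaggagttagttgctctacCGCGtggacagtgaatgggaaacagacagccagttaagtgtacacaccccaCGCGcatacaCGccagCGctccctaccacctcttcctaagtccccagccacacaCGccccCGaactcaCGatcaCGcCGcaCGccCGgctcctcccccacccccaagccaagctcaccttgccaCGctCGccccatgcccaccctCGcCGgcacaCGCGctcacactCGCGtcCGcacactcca
Kcnmb4, chr10:116473474-116473773, - strand: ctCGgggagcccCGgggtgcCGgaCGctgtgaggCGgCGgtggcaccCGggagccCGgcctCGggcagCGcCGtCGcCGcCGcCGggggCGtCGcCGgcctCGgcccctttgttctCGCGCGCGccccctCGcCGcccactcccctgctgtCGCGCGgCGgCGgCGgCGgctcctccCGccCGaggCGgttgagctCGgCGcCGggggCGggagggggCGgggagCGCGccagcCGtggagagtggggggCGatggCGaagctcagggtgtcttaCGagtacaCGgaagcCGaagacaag
Kcnmb4os2, chr10:116472913-116473212, + strand: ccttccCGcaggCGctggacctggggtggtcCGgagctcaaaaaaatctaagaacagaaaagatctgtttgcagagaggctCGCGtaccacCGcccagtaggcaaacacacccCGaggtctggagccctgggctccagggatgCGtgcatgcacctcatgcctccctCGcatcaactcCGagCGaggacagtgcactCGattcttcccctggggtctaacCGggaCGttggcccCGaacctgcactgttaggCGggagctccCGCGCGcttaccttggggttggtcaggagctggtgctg
The Kcnmb4 window held 48 CG, a count met by 1.22% of the 32851 windows of all genes, whereas the Kcnd3 window held 25 (18.4% at or above) and that of Kcnmb4os2 19. The Kcnmb4 and Kcnmb4os2 windows share 0 bases, and their starts lie 360 bases apart. At least 1 CG is present in 94.6% of all windows, whose median is 7. Where a gene has several windows their median was taken. Over the Kcn genes at 200 or more in all pools the median was 19.5 (11 genes, 3 to 48), over those that reached it in some pools 10 (15 genes, 3 to 31) and over those below it in all pools 10 (37 genes, 1 to 41). The ranges overlapped almost whole, and these counts describe the windows only.

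The main comparison was that of right and left within each embryo. A probe set was tested when its highest signal reached 200, which held for 53 of the 161 Kcn probe sets and for 21853 of 45037 on the array without controls. The log2 of right over left, log2(R/L), was taken in each embryo. Over the 53 its median was 0.02, −0.14 and 0.02 in embryos 1, 2 and 3, against 0.03, 0.03 and −0.001 over all tested probe sets. The mean of the 3 embryos had a median of −0.02 over the Kcn probe sets and 0.02 over all.

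By the fold rule of the methods, a transcript is lateralised when log2(R/L) has the same sign in all 3 embryos and its mean and the values of 2 or more embryos pass 0.58 (1.5-fold). The study also asked for a present call in at least 1 pool of each embryo. Present calls were not applied here, so the counts below are not those of the study's full filter. Of the 53 Kcn probe sets 3 met the fold rule with the right higher, where 2.4% of all tested probe sets did, and 2 with the left higher, where 1.55% did. With limma, 0 of 53 passed an adjusted p of 0.05 for side, where 0% of all tested probe sets did, and 1 had an unadjusted p under 0.05, where 3.4% did. That 1 was Kcnmb4os2. These counts are of 1 to 3 probe sets, and nothing particular to the Kcn genes is read from them.

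**Figure D2:**
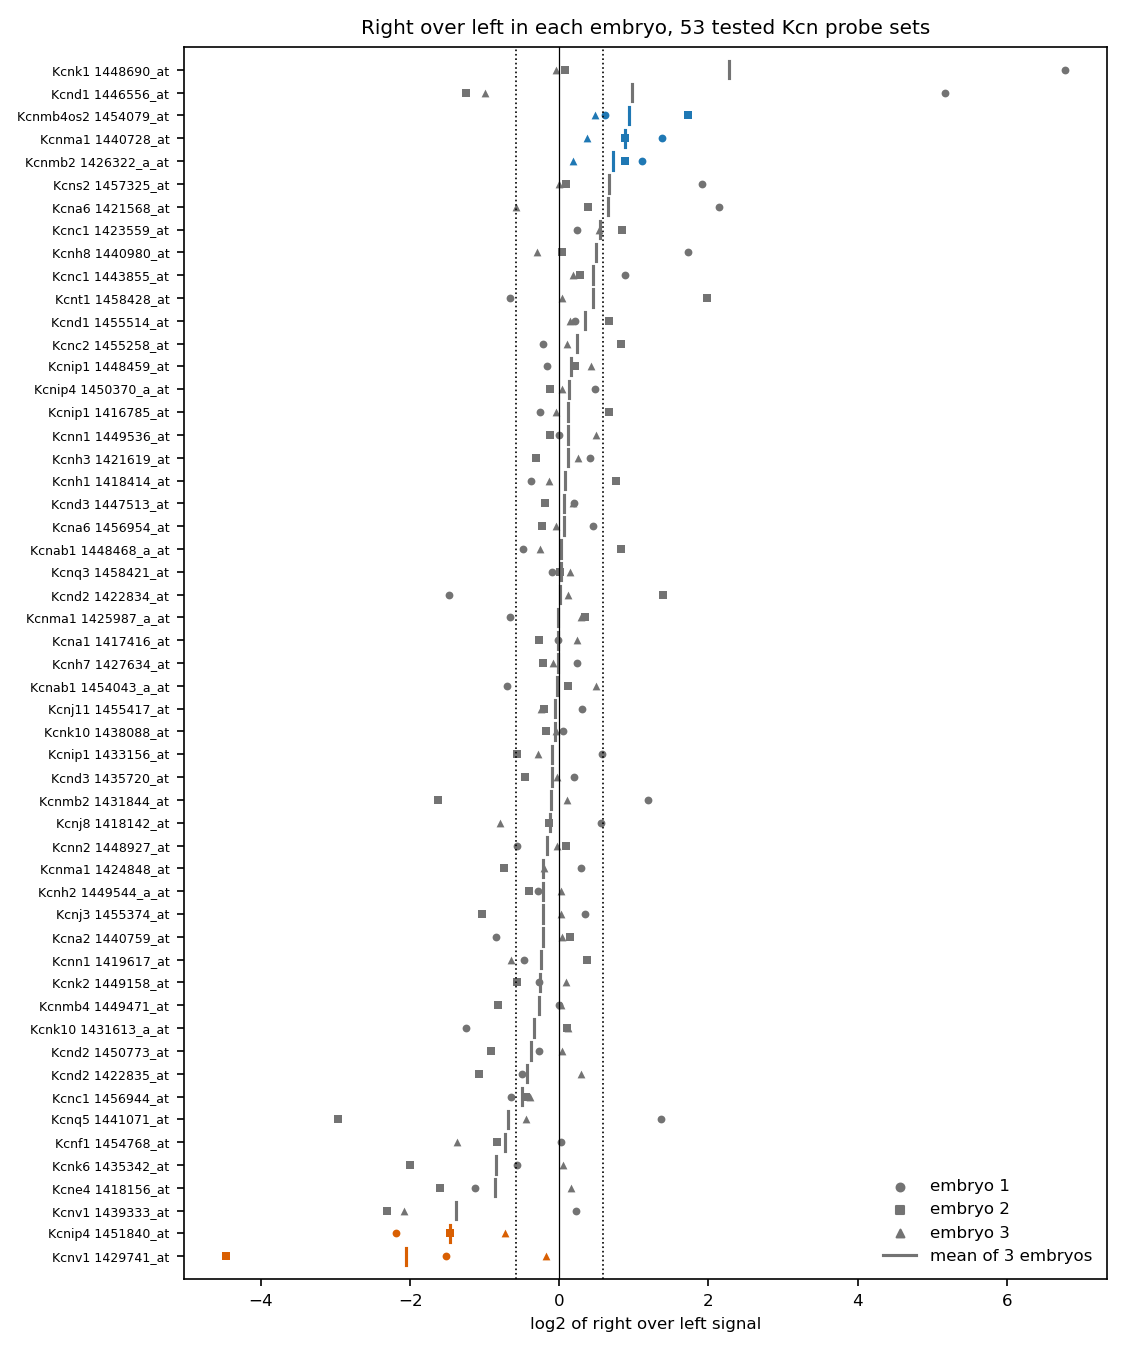
Log2 of right over left signal in each of 3 embryos (symbols) and their mean (bars) for the 53 tested Kcn probe sets, ordered by the mean. Blue marks the 3 right-higher and orange the 2 left-higher probe sets by the fold rule, and the dotted lines mark 0.58 in either direction. Most grey rows hold embryos on both sides of 0.

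On the right, Kcnmb4os2 met the rule. Its signal was 224, 85.6 and 196 in the left pools of embryos 1, 2 and 3 and 342, 283 and 272 in the right pools. All right pools lay above all left pools, as they did for 3 Kcn probe sets and for 2.98% of those tested on the array. Its log2(R/L) was 0.61, 1.73 and 0.48, with a mean of 0.94 ± 0.69 (SD, n = 3 embryos; limma adjusted p = 0.974). The call ended under quantile normalization (mean 0.87), median scaling (0.85), 50 added to signals (0.74), and without embryo 1 (1.10) or embryo 2 (0.55). With an embryo left out, both others had to pass 0.58, and embryo 3 (0.48) did not. The probe set of Kcnmb4 itself had ratios of −0.003, −0.82 and 0.02, so the strongest value of each lay in embryo 2, in opposite directions. Which strand the Kcnmb4os2 probe set reads was not checked, and the other antisense RNA of the gene, Kcnmb4os1, stayed at 47.4 or less.

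The other right-higher probe sets belong to the BK channel. A probe set of the pore gene Kcnma1 (1440728_at) read 85.1, 163 and 66.8 in left pools and 221, 301 and 86.3 in right pools, with a mean log2(R/L) of 0.88 ± 0.50 and 3 of 3 embryos higher on the right (limma adjusted p = 0.974). Left and right pools overlapped, and the probe set reached 200 only in the right pools of embryos 1 and 2. A probe set of the beta 2 subunit gene Kcnmb2 (1426322_a_at) read 111, 74.1 and 97.4 in left pools and 240, 136 and 111 in right pools, a mean of 0.73 ± 0.48 (limma adjusted p = 0.974). Its lowest right pool (110.817, embryo 3) was in effect level with its highest left pool (110.802, embryo 1). It reached 200 only in the right pool of embryo 1.

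On the left, Kcnv1 and Kcnip4 met the rule. Kcnv1 (Kv8.1), a modifier subunit of neurons, read 248, 101 and 166 in left pools and 86.3, 4.55 and 147 in right pools (1429741_at). Its mean log2(R/L) was −2.05 ± 2.20, and the value of embryo 2 (−4.47) rests on a right pool close to 0 (limma adjusted p = 0.974). Kcnip4, a KChIP gene that slows the inactivation of Kv4 channels, read 232, 83.2 and 59.0 in left pools and 50.8, 30.2 and 35.5 in right pools (1451840_at), a mean of −1.46 ± 0.73 (limma adjusted p = 0.974). All left pools of Kcnip4 were above all right pools, which held for 1 Kcn probe set and for 2.45% on the array. Both probe sets reached 200 only in the left pool of embryo 1.

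The 5 probe sets were dim, and the rule is met mostly by dim probe sets across the array. Among tested probe sets with a mean signal below 200, 11.2% met the rule in either direction (4 of 20 Kcn probe sets). The share was 4.78% between 200 and 500 (1 of 18) and 0.78% at 500 or more (0 of 15). The SD of log2(R/L) over embryos fell with brightness in the same way, with Kcn medians of 0.73, 0.58 and 0.32 and array medians of 0.82, 0.47 and 0.28 in these ranges. Of the 15 Kcn probe sets at 500 or more, 14 had a mean ratio within its own SD over embryos. The exception was Kcnh2, at −0.222 ± 0.219, with embryo 3 at 0.02. The widest were the pair of Kcnd2 probe sets and Kcnma1, given below. Kcnk10 averaged −0.06 ± 0.12, Kcnq3 0.02 ± 0.12, Kcnd3 −0.10 ± 0.34, Kcnj11 −0.05 ± 0.30 and Kcnn1 0.12 ± 0.32 (SD, n = 3 embryos).

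**Figure D3:**
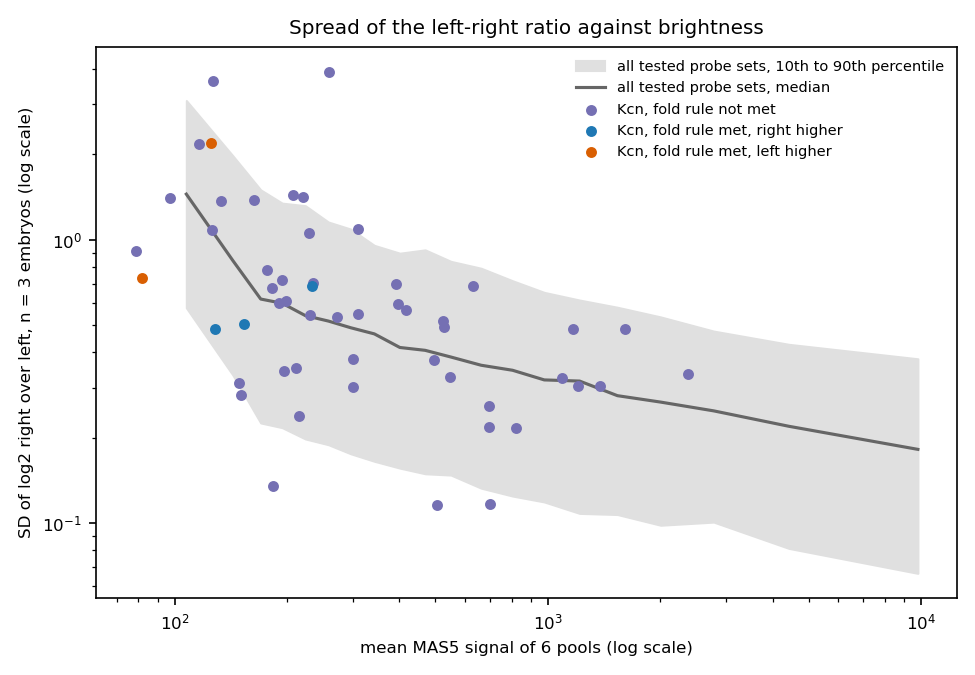
SD of log2 of right over left across 3 embryos against the mean signal of 6 pools (log axes), for Kcn probe sets (points) and for all 21853 tested probe sets (line, median; grey, 10th to 90th percentile). The 5 Kcn probe sets that met the fold rule (blue, right higher; orange, left higher) have mean signals of 234 or less.

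The embryos differed in how far their sides lay apart. A ratio beyond 0.58 in either direction was found for 21 Kcn probe sets in embryo 1 (39.6%), 25 in embryo 2 (47.2%) and 6 in embryo 3 (11.3%), against 35.3%, 29.6% and 6.88% of all tested probe sets. In embryo 3 all 6 were lower on the right, as were 903 of the 1504 on the array. Of the 11 Kcn probe sets that reached 200 in 1 pool only, 4 did so in the left pool of embryo 1, 5 in its right pool, 1 in each pool of embryo 2 and 0 in embryo 3. Over the whole array the same count for embryos 1, 2 and 3 was 353, 448 and 213 in left pools and 622, 425 and 167 in right pools. The right pool of embryo 1, where the mesenchyme and muscle markers were high, was the highest pool of 12 of the 53 (22.6%, array 22%). A log2(R/L) above 1.5 in embryo 1 was found for Kcnk1, Kcnd1 (1446556_at), Kcna6 (1421568_at, 2.14), Kcns2 (1.92) and Kcnh8 (1.73), all at most 0.38 in the other embryos. For Kcnk1 and Kcnd1 the left signals were 3.45 and 11.7, too low to give the ratio a size. These Kcna6 and Kcns2 probe sets reached 200 only in the right pool of embryo 1 (342 and 212). Beyond 1.5 the other way in embryo 1 were Kcnip4 (1451840_at, −2.19) and Kcnv1 (1429741_at, −1.52), which reached 200 only in its left pool. The share of the array past 1.5 was not counted. The part of the surrounding tissue in these ratios was not tested. With an embryo left out, the rule asked both others to pass 0.58. Without embryo 1 the rule gave 0 Kcn probe sets on the right and 3 on the left (Kcnf1, a second probe set of Kcnv1 and Kcnd1 1446556_at). In embryo 3 the left and right signals were only 58.9 and 13.9 for that Kcnv1 probe set and 18.8 and 9.46 for Kcnd1. The brighter Kcnd1 probe set (1455514_at) was higher on the right in each embryo, at 0.22, 0.67 and 0.15. Without embryo 2 the rule gave 0 and 1, and without embryo 3 it gave 3 and 3. The shares on the array, right and left, were 0.695% and 0.786% without embryo 1, 0.888% and 0.687% without embryo 2, and 4.66% and 2.87% without embryo 3.

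Several genes are read by more than 1 probe set, which allows a ratio to be set beside another reading of the same gene in the same pools. Of 13 Kcn genes with 2 or more tested probe sets, 9 had mean ratios of both signs, and in 3 (Kcnc1, Kcnip4 and Kcnma1) these differed in sign and by more than 1 on the log2 scale. For Kcnma1 the brightest probe set (1424848_at) averaged −0.22 ± 0.52 and the next (1425987_a_at) −0.01 ± 0.57, beside the 0.88 of the dim one. For Kcnip4 the brighter probe set (1450370_a_at) averaged 0.13 ± 0.31, beside −1.46. For Kcnc1 the probe sets of mean signal 496 and 301 averaged 0.45 ± 0.37 and 0.54 ± 0.30, both higher on the right in 3 of 3 embryos. The dimmest tested one averaged −0.49 ± 0.13 and was lower on the right in 3 of 3. None of the Kcnc1 probe sets met the fold rule, and whether they read different transcripts was not checked. The second probe set of Kcnmb2 (1431844_at) averaged −0.11 ± 1.42. Kcnv1 alone, among the called genes with another tested probe set, had a second one far to the same side (1439333_at, −1.39 ± 1.40), with embryo 1 at 0.23.

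**Figure D4:**
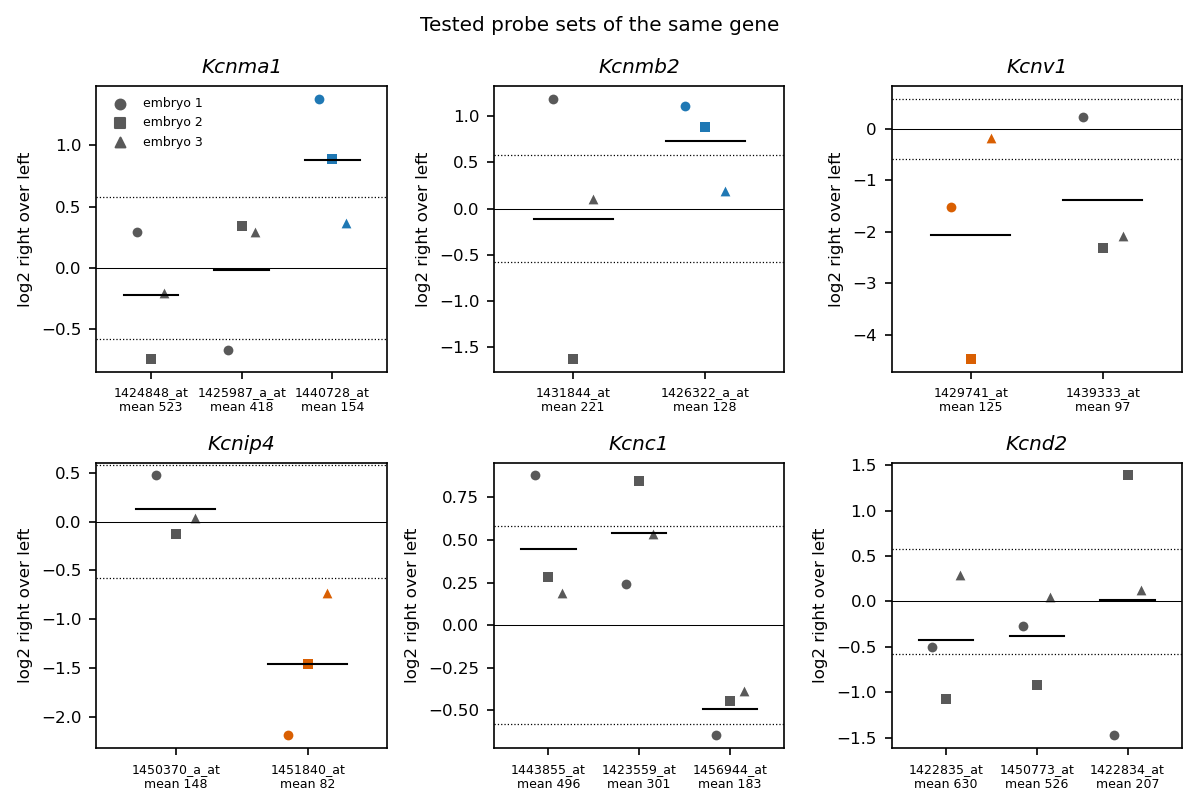
Log2 of right over left in each embryo (symbols) and the mean (bars) for the tested probe sets of 6 genes, ordered by mean signal from left to right in each panel. Blue and orange mark probe sets that met the fold rule, and dotted lines mark 0.58 in either direction. The right-higher Kcnma1 and left-higher Kcnip4 probe sets are the dimmest tested ones of their genes.

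For Kcnd2 the pair of brighter probe sets moved alike. They had ratios of −0.50, −1.08 and 0.29 (1422835_at) and −0.27, −0.92 and 0.04 (1450773_at), with means of −0.43 ± 0.69 and −0.38 ± 0.49. Embryos 1 and 2 were lower on the right and embryo 3 was not, so the rule was not met.

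The pools also allow the 3 animals to be compared, with the pools of both sides as the repeats of an animal. The animals differed in marker sums as well. In the left and right pools, 7 progenitor genes summed to 8623 and 10636 in embryo 1. They summed to 15311 and 14980 in embryo 2 and to 15470 and 14288 in embryo 3. The sums of 7 motoneuron genes were 19209 and 18635, 17344 and 15342, and 14116 and 13976 in embryos 1, 2 and 3. An animal and the make-up of its pools cannot be told apart, and the part of the make-up was not tested. With limma's F test for embryo, 0 of 53 Kcn probe sets passed an adjusted p of 0.05, where 0.27% of all tested probe sets did, and 11 had an unadjusted p under 0.05 (20.8%), where 15.3% did. The smallest p-values were those of Kcnk6, Kcnip1, Kcnmb2, Kcnq3, Kcnk10 and Kcnn1. Kcnk6 (TWIK-2) read 53.9, 603 and 260 in left pools and 36.4, 150 and 269 in right pools (limma adjusted p = 0.128). Embryo 1 was below the others on both sides. For Kcnip1, whose pools in embryo 1 were the highest, the adjusted p was 0.133, yet a second probe set (1416785_at) did not repeat the order. Its left pools read 1458, 633 and 1367 and its right pools 1224, 1006 and 1324, so that embryo 3 was about as high as embryo 1. For Kcnq3, lowest in embryo 1, the adjusted p was 0.231, and for Kcnk10, lowest in embryo 3, it was 0.264. A second Kcnk10 probe set (1431613_a_at) had its lowest pool in embryo 1. It read 256, 192 and 143 in left pools and 108, 207 and 155 in right pools. The dimmer probe set of Kcnn1 (1419617_at) was highest in embryo 1 and lowest in embryo 3 on either side, with left pools at 520, 258 and 224 and right pools at 376, 336 and 143 (limma adjusted p = 0.264). Kcnmb2 (1431844_at) was highest in both pools of embryo 3, at 386 and 416 (limma adjusted p = 0.186). Its other tested probe set (1426322_a_at) did not repeat this. It read 97.4 and 111 in embryo 3 and was highest in the right pool of embryo 1, at 240. Calls appeared when an animal was left out: Kcnmb2 (limma adjusted p = 0.00388) and Kcnk1 (0.00146) without embryo 1, and Kcnip1 (0.0227) and Kcnn1 (0.0457) without embryo 2. Across the array 5.15% of tested probe sets were then called without embryo 1 and 6.2% without embryo 2, and the Kcn calls were 2 of 44 and 2 of 51. A dimmer Kcnk1 probe set (1455896_a_at), not tested, read 40.1 and 35.4 in the left and right pools of embryo 2. In embryo 3 it read 45.6 and 51.8.

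**Figure D5:**
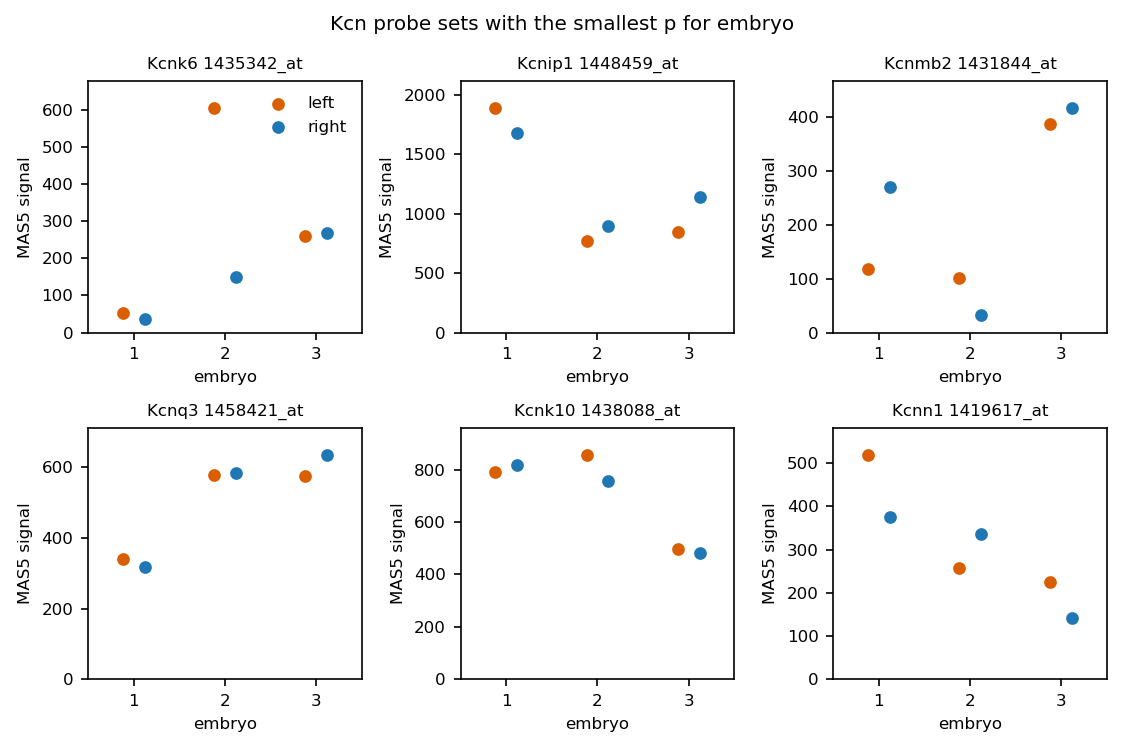
MAS5 signal (linear scale from 0) by embryo, with left pools in orange and right pools in blue, for the 6 Kcn probe sets with the smallest p for embryo. In Kcnq3 and Kcnk10 the 2 pools of an embryo lie close together and 1 embryo is below the others.

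Proteins that join, place or regulate potassium channels without bearing a Kcn name were read as a list, which also held the repressor gene Rest. Of its 16 genes, 15 were measured by a probe set of their own and 12 reached 200. Ank3, the ankyrin that anchors channels at the axon initial segment, read 4170 to 4795, and Nedd4l, a ubiquitin ligase that limits M-channels, 2778 to 3435. The adhesion molecules Cntn2 and Cntnap2, which later cluster Kv1 channels beside the node of Ranvier, read 798 to 1978 and 749 to 1497. By the fold rule 0 of the list were higher on the right (2.4% of all tested probe sets) and 1 on the left (1.55%). That was Dpp10, with 366, 332 and 149 in left pools and 180, 196 and 125 in right pools, a mean log2(R/L) of −0.68 ± 0.40 (SD, n = 3 embryos) and 3 of 3 embryos lower on the right. The pools overlapped, and Dpp10 reached 200 only in the left pools of embryos 1 and 2. Rest, a repressor that keeps neuronal genes off in other cells, read 125, 137 and 305 in left pools and 439, 209 and 287 in right pools, and was higher on the right in embryos 1 and 2 only.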

How the data were processed

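RNA of left and right GFP-positive cervical regions of 3 embryos was taken by laser capture, amplified, labelled with biotin and hybridised to 6 arrays. The authors computed the deposited signal intensities with MAS5 in Affymetrix Expression Console (version not given in the sources used here), on a linear scale. Present calls were not used here. Of 45101 probe sets, 64 controls were left out. The annotation names 1 gene for 34945, several for 932 and none for 9160. Signals were taken to log2 with no constant added. Pools of an embryo were paired because they share an animal and sections. Their deviations from the side means correlated at 0.241, 0.215 and 0.495. The fit used limma 3.58.1 under R 4.3.3 (side and embryo as terms, variances with a trend, Benjamini-Hochberg over 21853 tested probe sets, threshold 0.05). The fit was also run on simulated data, whose results are not given here. With 3 embryos an exact sign-flip test cannot go below p = 0.25, and the number of arrays limits the precision. Counts and sequences were handled in Python 3.11.15. Alternatives were quantile and median scaling, 50 added to signals, other signal limits, other fold limits, each embryo left out, no embryo term and variances without a trend.

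Genes named with values are the 20 with the highest mean signal of their brightest probe set, all that met the fold rule, the 3 and 6 probe sets with the smallest p for side and embryo, the brightest of each subunit class, known channels of motoneuron excitability, and genes whose probe sets differed in sign and by more than 1. Others are named to give ranges and were chosen after their values were seen. The members and lists were chosen with earlier results of these data known. Kcn symbols are those of the array annotation.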

Additional observations from a re-analysis of the deposited data

How the results depend on the processing

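The counts by the fold rule depended on the processing and rest on dim probe sets. Against 3 Kcn probe sets higher on the right, 50 added to each signal gave 1, a limit of 200 on the mean signal 1, a limit of 500 on the highest signal 0, a 2-fold limit 0, and a change beyond 1.5-fold in all 3 embryos 0. On the array the share higher on the right was 2.4%, and under these settings 1.52%, 1.31%, 0.968%, 0.874% and 0.384%. Against 2 higher on the left, these gave 2, 0, 0, 2 and 1, and median scaling 4. The array share on the left was 1.55%, and under these settings 0.901%, 0.988%, 0.768%, 0.435% and 0.224%. With median scaling it was 1.96%. With no signal limit all 161 were read and 11 and 16 met the rule, against 2805 and 1696 of 45037 on the array. Leaving out an embryo gave 0 to 3 on the right and 1 to 3 on the left. Quantile normalization gave 2 and 3, where 2.14% and 1.84% of all tested probe sets met the rule. Of the 5 called probe sets, the Kcnmb4os2 call ended under quantile normalization, median scaling and the added 50, those of Kcnmb4os2 (mean 1.10 and 0.55) and Kcnma1 (0.63 and 0.87) without embryo 1 or 2, and those of Kcnmb2 and Kcnv1 without embryo 2, and that of Kcnmb2 with the added 50. Without embryo 1, Kcnmb2, Kcnv1 and Kcnip4 no longer reached 200. With an embryo left out, both others had to pass 0.58. Embryo 3 did not for Kcnmb4os2 (0.48), Kcnma1 (0.37), Kcnmb2 (0.19) and Kcnv1 (−0.17). Why calls ended under the other settings was not tested. No called ratio changed sign. Leaving out an embryo, adding 50 or moving a limit could not change it, because called probe sets have the same sign in all embryos. The median log2(R/L) of the Kcn probe sets was −0.12 with median scaling, which moved the median of all tested probe sets from 0.02 to −0.07. Limma called 0 Kcn probe sets for side under all 12 settings, including no replicate block, with a lowest adjusted p from 0.864 to 1. For embryo it called 0 except when an embryo was left out, which gave 0 to 2 (Kcnmb2 and Kcnk1 without embryo 1, Kcnip1 and Kcnn1 without embryo 2). Signals near background limit the size of any ratio formed from them.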
